A study of Homo sapiens with 2 samples.

Results

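LINC00942, MALAT1, NEAT1, H19, GAS5, SNHG1, SNHG5 and SNHG8 are 8 long non-coding RNAs, transcripts without a known protein product, among the 59125 gene rows of each count table. They were found by their names in the tables, and the set had been selected on the measured difference between these same libraries (the fall of LINC00942) and on a presumed high abundance. Their differences are therefore described here and carry no test. Of the 8, 7 had a mean CPM of 1 or more (counts scaled to 1000000 per library, as described with the first values), and H19 did not. The 8 together took 0.0773% of the counts in one library and 0.0844% in the other.

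To examine which transcripts differ when the deubiquitinase USP12 is depleted, the study sequenced RNA of H1944, an established line of human lung adenocarcinoma cells. The group named shCON carried a control short hairpin RNA and the group named shUSP12 carried a short hairpin RNA against USP12, both delivered by a lentiviral vector, and neither had a further treatment given in the labels. Each group held 1 library, and the counts summed to 18249112 in shCON and to 17475359 in shUSP12. Which hairpin, how many were used and how long after infection the cells were taken are not given in the labels, and the header of the shCON table names its count column after RFP, although the control hairpin of the methods targets GFP. With 1 library per group no difference has a replicate check, no p-value was computed, and every value compares these libraries and not the conditions.

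USP12 itself had 711 counts in shCON and 219 in shUSP12, which was 29.3% of the shCON level after scaling. The libraries also stood apart in genes that mark cell identity. Of 5 epithelial markers all exceeded 3 counts in both libraries, but they did not share one direction. KRT19 had 32 counts in shCON and 4452 in shUSP12, EPCAM 115 and 1566, and CDH1 1026 and 2496. KRT8, with 85596 and 62180 counts, and KRT18, with 24132 and 18096, were lower in shUSP12. The 5 summed to 6363 CPM in shCON and 4853 CPM in shUSP12. The lung lineage factor NKX2-1 was at 0 and 312 counts. The lung surfactant gene SFTPB was at 0 in both. The 5 immune markers were at 0 in shCON and summed to 0.547 CPM in shUSP12, the 3 endothelial markers summed to 0.803 and 1.26 CPM, and the 5 fibroblast markers to 78.2 and 96.0 CPM, most of it from LUM and DCN. Counts of at most 3 in shCON beside at least 50 in shUSP12 were found for 119 rows, 17 of them long non-coding, and the opposite for 1 row. The part of these differences in the values below was not tested, and in bulk RNA a change in the share of cells that express a gene and a change per cell cannot be told apart.

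Long non-coding RNAs act as RNA and fall into classes with different sites of action. MALAT1 and NEAT1 are nuclear. MALAT1 gathers in nuclear speckles, where splicing factors are stored, and NEAT1 is the scaffold around which paraspeckles assemble. GAS5, SNHG1, SNHG5 and SNHG8 are host genes of small nucleolar RNAs (snoRNAs). Their introns are processed into snoRNAs, which guide chemical modification of ribosomal and spliceosomal RNA, while many of the spliced exon transcripts are exported and removed by nonsense-mediated decay, a surveillance pathway coupled to translation. H19 is an imprinted RNA, read from the maternal chromosome and abundant in fetal tissue, that also carries a microRNA. LINC00942 is a long intergenic non-coding RNA whose locus overlaps no other annotated gene.

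The ends of MALAT1 and NEAT1 are shown because MALAT1 and the long form of NEAT1 are cut by RNase P at a transfer RNA-like element. The mature long RNA then ends in a genomically encoded A-rich tract in place of a conventional poly(A) tail. That tract folds with U-rich motifs upstream into a triple helix which protects the end. The libraries were made with a kit for mRNA, and how well such ends are captured was not tested. Read from the genome (GRCh38, plus strand, 5′ to 3′), the 100 bases up to the annotated small RNA at the end of MALAT1 are chr11:65506017-65506116 and the last 100 bases of NEAT1 are chr11:65445441-65445540. Capitals mark the longest run of bases that both windows share, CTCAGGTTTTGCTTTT, which is rich in T, and the A-rich motif, a run of 4 or more A followed by GCAAAA.
MALAT1: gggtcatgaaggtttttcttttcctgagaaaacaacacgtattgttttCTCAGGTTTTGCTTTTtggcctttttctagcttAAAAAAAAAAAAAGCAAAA
NEAT1: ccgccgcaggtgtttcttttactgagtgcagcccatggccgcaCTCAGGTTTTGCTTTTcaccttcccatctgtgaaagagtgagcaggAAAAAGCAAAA
Both windows end with the A-rich motif, of 19 bases in MALAT1 and 11 bases in NEAT1, and hold the shared run of 16 bases upstream of it. The search was made on the given strand only, since strand matters in an RNA, and the marked runs do not overlap. As the shared run was taken from these windows, its presence in both is no finding. Among 18853 canonical long non-coding transcripts of GENCODE release 44, the last 100 bases held both motifs in 1 transcript, NEAT1 itself, and the A-rich motif in 33 (0.175%). The annotated MALAT1 transcript runs past its window, through the small RNA at chr11:65506117-65506173, and so was not among them.

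The starts of the 4 snoRNA host genes are shown because transcripts of this class are known for a 5′ terminal oligopyrimidine tract, a C followed by a run of C and T right at the first base, which ties their translation and decay to growth signals. The first 60 bases of each canonical GENCODE release 44 transcript are given 5′ to 3′, with the longest run of C and T in capitals (in SNHG1 the first of 2 runs of equal length) and LINC00942 for comparison.
GAS5: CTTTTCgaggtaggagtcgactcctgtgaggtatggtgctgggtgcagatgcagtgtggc
SNHG1: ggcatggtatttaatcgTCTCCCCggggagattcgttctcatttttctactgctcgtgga
SNHG5: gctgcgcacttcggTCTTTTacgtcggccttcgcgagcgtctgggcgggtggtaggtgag
SNHG8: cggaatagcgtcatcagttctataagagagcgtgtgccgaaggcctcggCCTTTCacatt
LINC00942: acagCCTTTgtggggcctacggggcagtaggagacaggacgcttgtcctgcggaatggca
The GAS5 bases span chr1:173867014-173867989 on the minus strand and those of SNHG1 chr11:62855465-62855922 on the minus strand, each joined across an intron. The others lie within 1 exon, at chr6:85678689-85678748 on the minus strand for SNHG5, chr4:118278708-118278767 on the plus strand for SNHG8 and chr12:1500525-1500584 on the plus strand for LINC00942. Only GAS5 of these 5 starts with C and at least 4 further C or T at its annotated first base, as did 2.79% of 18866 canonical long non-coding transcripts of at least 60 bases. The longest runs, of 7 bases in SNHG1, 6 in GAS5, SNHG5 and SNHG8 and 5 in LINC00942, lie near the median of 6 over those transcripts. Annotated starts need not be the starts used in H1944 cells.

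LINC00942 (ENSG00000249628) is annotated at chr12:1500525-1504424 on the plus strand as 1 transcript with 2 exons and 2210 exonic bases. It had 655 counts in shCON and 148 in shUSP12. Scaled to CPM with TMM factors (trimmed mean of M values, which sets the libraries to a common centre), this was 37.6 CPM (95% interval 34.8 to 40.6) in shCON and 8.09 CPM (6.84 to 9.50) in shUSP12. Intervals here and below are exact Clopper-Pearson intervals and cover counting error only, as reads are not independent molecules. The shUSP12 level was 21.5% of the shCON level, a log2 ratio of −2.20 (95% interval −2.48 to −1.96), where log2 ratios are shUSP12 over shCON after adding 0.1 CPM and their intervals carry no added value. The level was thus far lower in shUSP12, and the counting intervals do not overlap. It was the one member at least 2-fold lower, against 3.01% of all 14612 rows with a mean CPM of 1 or more and 7.34% of the 1090 long non-coding rows among them. Its log2 ratio was the lowest of the 1090 and had rank 17 from the bottom of the 14612. Of the 6986 rows with a mean CPM at or above that of LINC00942, itself included, none had a lower log2 ratio. These ranks use the same values that chose the gene and are descriptions.

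**Figure D1:**
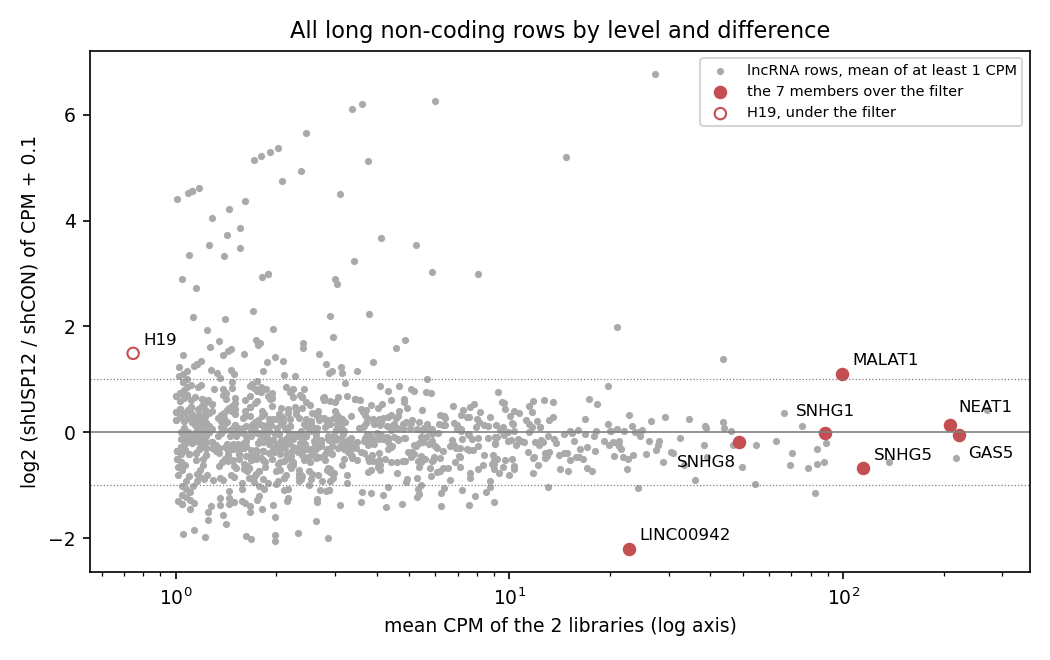
Each point is a long non-coding row with a mean CPM of 1 or more, placed by its mean CPM over the 2 libraries (x axis, log scale) and its log2 ratio of shUSP12 over shCON (y axis), with the members in red, H19 as an open circle below the filter, and dotted lines at a 2-fold difference. LINC00942 is the lowest point at −2.20, MALAT1 sits just above the upper dotted line at 1.11, and the other 5 members over the filter lie between −0.68 and 0.14.

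Among the genes around LINC00942, ERC1 and ADIPOR2 were lower as well, but by less, and FBXL14 differed by less than its counting error. Of 9 other annotated rows within 250 kb, 3 had a mean CPM of 1 or more. ERC1, which encodes a scaffold protein of vesicle docking and NF-κB signalling, ends 4592 bases upstream on the same strand. It had 3109 counts in shCON and 2054 in shUSP12, giving a log2 ratio of −0.67 (95% interval −0.75 to −0.59). ADIPOR2, an adiponectin receptor 184150 bases downstream, had 3360 and 2776 counts, a log2 ratio of −0.35 (−0.42 to −0.27). FBXL14, an F-box subunit of a ubiquitin ligase on the opposite strand, had 818 and 805 counts, a log2 ratio of −0.09 (−0.24 to 0.05). None of these 3 intervals reaches that of LINC00942. The 3 long non-coding rows with a mean CPM of 5 or more nearest to LINC00942 in log2 ratio over the 2 libraries, of 288 considered, were also the next lowest. C6orf223 had 158 counts in shCON and 62 in shUSP12 (log2 ratio −1.39), TMPO-AS1 191 and 76 (−1.38), and FLJ16779 224 and 93 (−1.32). They differed from LINC00942 by 0.81 to 0.88 on the log2 scale, and each of their intervals lies above that of LINC00942. TMPO-AS1 is antisense to a coding gene, and as the strand setting of the counting is not given, its reads may not be told apart from those of its partner.

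MALAT1 (ENSG00000251562, chr11:65497640-65508073, plus strand) was higher in shUSP12. It had 1100 counts in shCON and 2486 in shUSP12, or 63.1 CPM (95% interval 59.4 to 67.0) and 136 CPM (131 to 141). The log2 ratio was 1.11, with an interval that began just above the 2-fold line and ended at 1.21. MALAT1 was the one member over the filter that was at least 2-fold higher, against 6.48% of all rows tested and 8.53% of long non-coding rows. Of the 2124 rows with a mean CPM at or above that of MALAT1, 16 had a higher log2 ratio. AP000769.1, a short row between NEAT1 and MALAT1, had 307 and 213 counts (log2 ratio −0.59).

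NEAT1 (ENSG00000245532, chr11:65422774-65445540, plus strand), which lies upstream of MALAT1, differed far less. It had 3476 counts in shCON and 4021 in shUSP12, or 199 CPM (95% interval 193 to 206) and 220 CPM (213 to 227), a log2 ratio of 0.14 (0.07 to 0.21). The counting intervals of its levels do not overlap, but the difference is 1.10-fold. FRMD8, its neighbour 9249 bases upstream, had 761 and 692 counts (log2 ratio −0.21). Per 100 counts of NEAT1, MALAT1 had 31.6 counts (29.5 to 33.9) in shCON and 61.8 (58.8 to 65.0) in shUSP12, so the balance between these nuclear RNAs differed without any scaling between libraries. The counts are per gene and do not separate the short and long forms of NEAT1.

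H19 (ENSG00000130600, chr11:1995166-2004552, minus strand) was barely detected. It had 6 counts in shCON and 21 in shUSP12, or 0.344 CPM (95% interval 0.126 to 0.749) and 1.15 CPM (0.71 to 1.75). Its log2 ratio of 1.49 (0.38 to 3.34) rests on so few counts that the interval spans from well under 2-fold to over it, and it did not pass the filter of 1 CPM. In these cells H19 is thus not one of the abundant long non-coding RNAs, against the name the set was given. MRPL23, a mitochondrial ribosomal protein gene 10644 bases away on the opposite strand, had 6 counts in shCON and 80 in shUSP12. CD81, the nearest tested gene on the other side at 371625 bases, had 3497 and 2458 counts (log2 ratio −0.58). IGF2, the paternally expressed growth factor gene next to H19, had 0 counts in shCON and 1 in shUSP12.

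**Figure D2:**
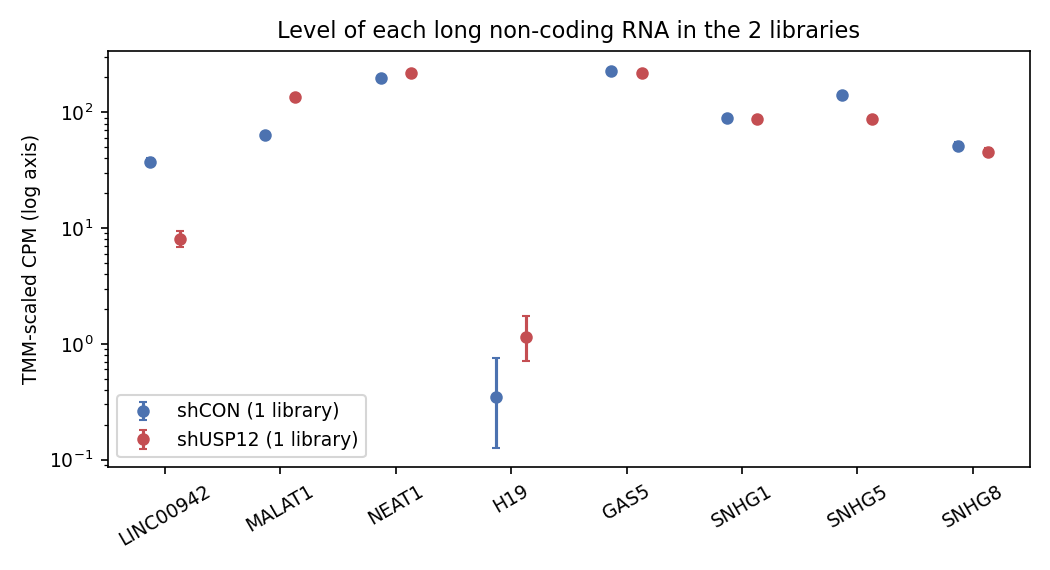
The TMM-scaled CPM of each member (y axis, log scale) is drawn for the shCON library in blue and the shUSP12 library in red, with exact 95% counting intervals as bars. LINC00942 is at 37.6 CPM in shCON and 8.09 in shUSP12, MALAT1 at 63.1 and 136, and H19 lies near 1 CPM or below in both libraries.

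Of the 4 snoRNA host genes, GAS5 and SNHG1 had nearly the same level in both libraries, SNHG8 was slightly lower and SNHG5 was lower by more than 1.5-fold in shUSP12. GAS5 (ENSG00000234741, chr1:173858559-173868882, minus strand), a host of box C/D snoRNAs also known as an RNA that builds up when growth stops, had 3949 counts in shCON and 4015 in shUSP12. This was 227 CPM (95% interval 220 to 234) and 219 CPM (213 to 226), and its log2 ratio of −0.05 had an interval from −0.11 to 0.02. SNHG1 (ENSG00000255717, chr11:62851978-62855953, minus strand) had 1545 and 1603 counts, or 88.6 CPM (84.3 to 93.2) and 87.6 CPM (83.4 to 92.0), and a log2 ratio of −0.02 (−0.12 to 0.08). In both genes the intervals of the levels overlap between the libraries.

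SNHG8 (ENSG00000269893, chr4:118278703-118285316, plus strand), a host of the box H/ACA snoRNA SNORA24, had 901 counts in shCON and 837 in shUSP12, or 51.7 CPM (95% interval 48.4 to 55.2) and 45.7 CPM (42.7 to 49.0). Its log2 ratio was −0.18 (−0.31 to −0.04), close to zero on this scale. SNHG5 (ENSG00000203875, chr6:85650491-85678932, minus strand), a host of box C/D snoRNAs, had 2468 and 1613 counts, or 142 CPM (136 to 147) and 88.2 CPM (83.9 to 92.6). Its log2 ratio was −0.68 (−0.78 to −0.59). It was the one host among the 4 at least 1.5-fold lower, a size that 9.11% of all rows and 18.4% of long non-coding rows also reached. Scaled to total counts alone its log2 ratio was −0.55, short of 1.5-fold. Per 100 counts of GAS5, SNHG5 had 62.5 counts (59.4 to 65.7) in shCON and 40.2 (37.9 to 42.6) in shUSP12, whereas SNHG1 had 39.1 (36.9 to 41.5) and 39.9 (37.7 to 42.3) and SNHG8 22.8 (21.2 to 24.5) and 20.8 (19.3 to 22.5). SNHG5 thus differed against GAS5 by more than its counting interval, and for SNHG1 and SNHG8 the intervals of the libraries overlap.

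**Figure D3:**
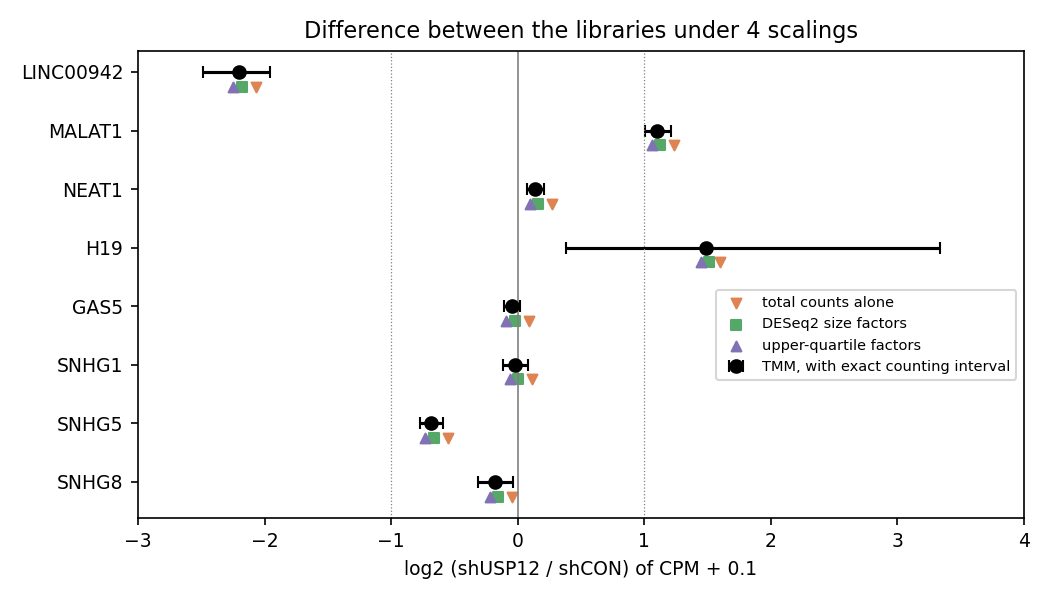
The log2 ratio of shUSP12 over shCON (x axis) is drawn for each member as a black point with its exact 95% counting interval under TMM scaling, and as coloured points under 3 other scalings. GAS5 and SNHG1 lie on either side of 0 depending on the scaling, whereas LINC00942 stays between −2.25 and −2.07 under the 4 scalings shown.

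The genes next to the hosts had values of their own. By annotated gene bounds, SNHG1 and SLC3A2, the heavy chain of amino acid transporters in the cell membrane, start 51 bases apart on opposite strands. They share a promoter region. The canonical SNHG1 transcript starts further from SLC3A2, at chr11:62855922. SLC3A2 had 31036 counts in shCON and 21943 in shUSP12, giving a log2 ratio of −0.57 (95% interval −0.60 to −0.55), while SNHG1 was at −0.02. The RefSeq promoter entry of SNHG1 (GRCh38, chr11:62855836-62856135, minus strand, 300 bases, 5′ to 3′) is shown because both genes are read from it. Capitals mark the 50 bases between the annotated gene bounds.
SNHG1 promoter: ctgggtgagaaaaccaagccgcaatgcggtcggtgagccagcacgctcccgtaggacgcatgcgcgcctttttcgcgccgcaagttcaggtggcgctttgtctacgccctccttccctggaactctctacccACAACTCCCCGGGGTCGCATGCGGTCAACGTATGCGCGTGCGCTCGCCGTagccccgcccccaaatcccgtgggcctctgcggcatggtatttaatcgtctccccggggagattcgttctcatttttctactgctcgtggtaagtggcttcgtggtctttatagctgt
It holds 30 CG dinucleotides, against a median of 14 over 35116 RefSeq promoter entries of the same length. WDR74, a ribosome biogenesis gene on the other side of SNHG1, had 738 and 988 counts (log2 ratio 0.35). Beside SNHG5, SYNCRIP, an RNA-binding protein gene, had 3873 and 3930 counts (−0.05), and ZNF292, a zinc finger gene 1472871 bases away, had 202 and 276 (0.38).

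Around GAS5, the tested genes CENPL, a centromere protein gene, and RC3H1, an mRNA decay factor gene, had 523 and 504 counts (log2 ratio −0.12) and 569 and 616 counts (0.04). GAS5 overlaps the annotated end of ZBTB37 (310 and 351 counts), and SNHG8 overlaps PRSS12 (422 and 384). Both are on the opposite strand and have fewer counts than the host, so if strand was not used in counting, some reads may belong to either gene. Of the genes nearest to SNHG8 without overlap, TRAM1L1 had 36 and 57 counts and AC110079.1 266 and 332.

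The annotated snoRNAs inside SNHG1, SNHG5 and SNHG8 had no counts. These are SNORD22, SNORD25, SNORD26, SNORD27, SNORD28 and SNORD30 in SNHG1, SNORD50B in SNHG5 and SNORA24 in SNHG8. A snoRNA with a row at 0 counts was not told apart from one without a row. The snoRNAs of GAS5 were not analysed here. The smallest level taken as detectable, 3 counts, was 0.172 CPM in shCON and 0.164 CPM in shUSP12 on the TMM scale. Over all 941 snoRNA rows, 798 were at 0 in both libraries and the sums were 550 counts in shCON and 519 in shUSP12, so a few snoRNAs were read, such as those inside SNHG17 with 57 and 61 counts together. Libraries made for mRNA hold few small RNAs, and the level of a host transcript says nothing of its snoRNAs here.

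Among all 29 non-coding snoRNA host genes listed, matched by name or identifier, 25 had a mean CPM of 1 or more. In shUSP12, 2 of the 25 were higher by 2-fold or more and none was lower by 2-fold. At 1.5-fold, 7 were lower and 2 higher, so 28% of the 25 reached the lower threshold that 9.11% of all rows and 18.4% of long non-coding rows reached. Scaled to total counts alone, 2 of the 25 hosts (8%), SNHG12 and DANCR, were lower by 1.5-fold, against 6.2% of all rows and 13.9% of long non-coding rows, so 5 of the 7 calls depend on the scaling. Under DESeq2 size factors 7 hosts (28%) were lower, against 8.65% of all rows and 18.1% of long non-coding rows. Under upper-quartile factors 8 hosts (32%) were lower, against 10.4% and 20.6%. The median log2 ratio of the hosts was −0.18 under TMM scaling (−0.044 under total counts), against −0.01 for all rows tested and −0.07 for long non-coding rows. The 7 lower hosts were SNHG4, SNHG5, SNHG6, SNHG7, SNHG12, SNHG19 and DANCR, with log2 ratios from −0.73 to −0.62 under TMM scaling. LRRC75A-AS1, the name these tables give SNHG29, had the highest mean CPM of the hosts after GAS5, with 4431 counts in shCON and 3333 in shUSP12 (log2 ratio −0.48, 95% interval −0.55 to −0.42).

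The 2 higher hosts were SNHG14 and SNHG18. SNHG14, the long imprinted transcript of the Prader-Willi region that carries many SNORD115 and SNORD116 copies, had 423 counts in shCON and 1157 in shUSP12, giving a log2 ratio of 1.38 (95% interval 1.22 to 1.55). SNHG18, named after its values were seen, had 0 and 41 counts, at least 13.02-fold higher when set against 3 counts in shCON. The interval lay below 0 for 12 of the 25 hosts, above 0 for 6 and held 0 for the other 7. The share of all rows with such intervals was not computed. These counts may also shift with the scaling, and no lean of the hosts is read from them.

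**Figure D4:**
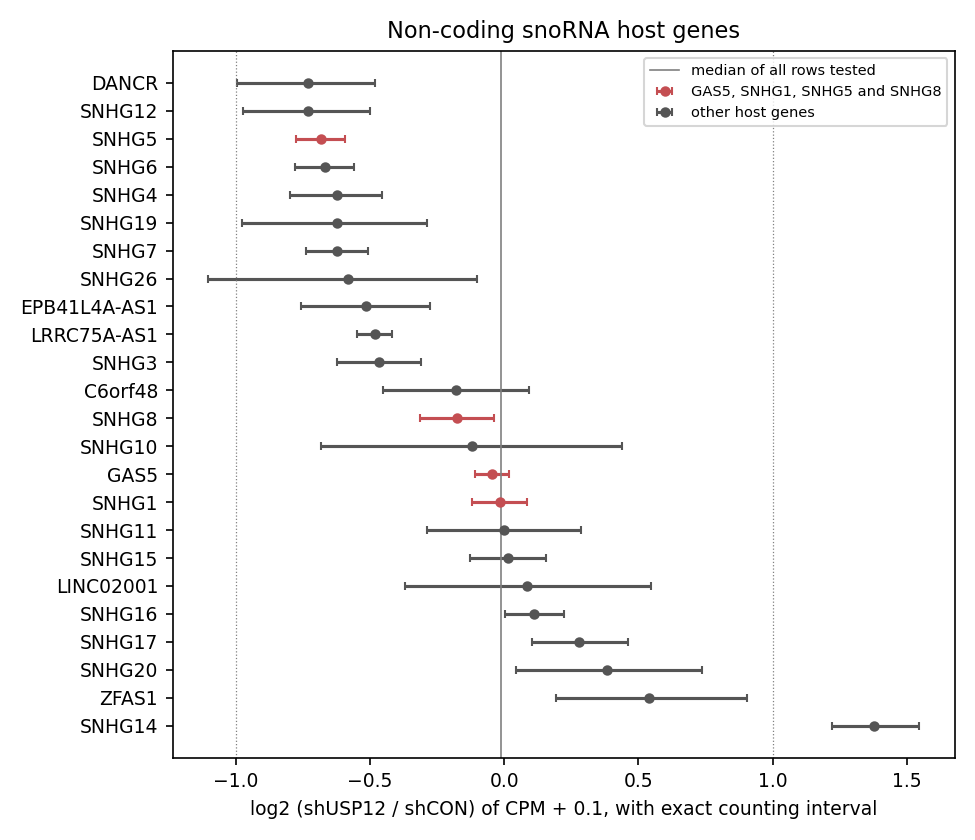
The log2 ratio of shUSP12 over shCON (x axis) with its exact 95% counting interval is drawn for 24 snoRNA host genes with a mean CPM of 1 or more, the 4 members in red. SNHG18, with 0 counts in shCON, is left out. A group of hosts around SNHG5 lies between −0.73 and −0.62, GAS5 and SNHG1 lie near the grey line at the median of all rows, and SNHG14 is at 1.38.

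Set against each other within a library, where no scaling enters, LINC00942 was lower in shUSP12 relative to each of the 6 other members over the filter. Per 100 counts of SNHG8, LINC00942 had 72.7 counts (95% interval 65.6 to 80.5) in shCON and 17.7 (14.7 to 21.1) in shUSP12. Per 100 counts of SNHG1 it had 42.4 (38.6 to 46.5) and 9.23 (7.75 to 10.9), and per 100 counts of GAS5 16.6 (15.2 to 18.0) and 3.69 (3.11 to 4.34). The gap was narrowest against SNHG5, the host that was itself lower, with 26.5 (24.3 to 28.9) and 9.18 (7.70 to 10.9). It was widest, among these 6, against MALAT1, with 59.5 (54.0 to 65.7) and 5.95 (5.01 to 7.03), and against NEAT1 the values were 18.8 (17.3 to 20.5) and 3.68 (3.10 to 4.34). The shUSP12 ratio was 9.998% of the shCON ratio against MALAT1, 19.5% against NEAT1, 22.2% against GAS5, 21.8% against SNHG1, 34.6% against SNHG5 and 24.3% against SNHG8. No pair of intervals overlaps between the libraries. All 6 share the same LINC00942 counts and are not independent. Against H19, with 6 and 21 counts, the ratio could not be set with any precision.

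**Figure D5:**
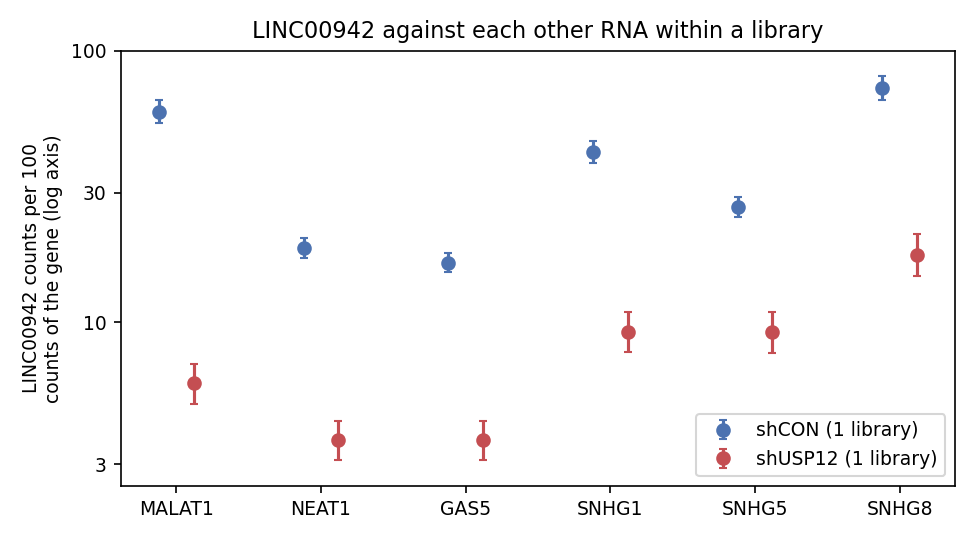
Counts of LINC00942 per 100 counts of each other member except H19 (y axis, log scale) are drawn for shCON in blue and shUSP12 in red, with exact 95% counting intervals as bars. The red point lies below the blue one for all 6 genes, from 26.5 to 9.18 for SNHG5 to 59.5 to 5.95 for MALAT1.

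To compare levels between genes, CPM were divided by transcript length. Per kilobase of the canonical transcript, the order in shCON was GAS5 (295 CPM per kb), SNHG5 (108), SNHG1 (76.3), LINC00942 (17.0), NEAT1 (8.77), SNHG8 (8.38), MALAT1 (6.05) and H19 (0.311). NEAT1 and SNHG8 were neighbours whose counting intervals overlapped. In shUSP12 the order was GAS5 (286), SNHG1 (75.4), SNHG5 (67.0), MALAT1 (13.02), NEAT1 (9.66), SNHG8 (7.42), LINC00942 (3.66) and H19 (1.04), with no overlap between neighbours. With these lengths, LINC00942 was above MALAT1, NEAT1 and SNHG8 in shCON and below all of them in shUSP12. For NEAT1 the length is that of the long form, 22743 bases. Its level per kilobase would be higher if most reads came from the short form. Its place against LINC00942 in shCON is therefore not settled. For SNHG8 the canonical length is 6166 bases, close to its 6614 exonic bases. Its level per kilobase would be higher if most reads came from a shorter transcript. The place of SNHG8 against LINC00942 in shCON is thus not settled either. The length used changes the order. Over all annotated exonic bases, which run to 12604 in SNHG5 and 4932 in GAS5, LINC00942 (17.0) was above SNHG5 (11.2) in shCON and below it (3.66 and 6.99) in shUSP12, while GAS5 stayed highest in both.

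Other well-studied long non-coding RNAs did not share one direction in shUSP12. Of 40 listed, 39 were matched and 28 had a mean CPM of 1 or more. Of any size, 20 of the 28 were higher and 8 lower. The counting interval lay above 0 for 14 and below 0 for 6. The shares of all rows by sign and by interval were not computed. These counts may also shift with the scaling, and no lean of the list is read from them. By 2-fold or more, 3 of these 28 were higher and 3 lower, with LINC00942 among the lower and MALAT1 among the higher, since the list contains them. Over all rows tested, 6.48% were higher and 3.01% lower, and over long non-coding rows 8.53% and 7.34%. The 3 of 28 in each direction (10.7%) lay above these shares, most of all above the 3.01%, but 3 genes are few for such a comparison. LINC00942, chosen for its fall, is 1 of the 3 lower. The median log2 ratio of the 28 was 0.28, against −0.07 for long non-coding rows. NORAD, a cytoplasmic RNA that binds Pumilio proteins, had the highest mean CPM, with 4034 counts in shCON and 5643 in shUSP12 (log2 ratio 0.41, 95% interval 0.36 to 0.47). The remaining 4 past 2-fold, MIR17HG, MIAT, HOTAIR and CASC15, were under 5 CPM and named after their values were seen. MIR17HG (34 and 80 counts) and MIAT (11 and 31) were higher, and HOTAIR (69 and 33) and CASC15 (102 and 51) were lower.

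The largest rises among long non-coding rows with a mean CPM of 5 or more exceeded the fall of LINC00942 in size. AFAP1-AS1, an antisense RNA known from lung cancer, had 7 counts in shCON and 993 in shUSP12 (log2 ratio 6.76, 95% interval 6.03 to 8.40). LINC00624 had 12 and 530 counts (5.20), AC104534.1 had 13 and 178 (3.54), and AC092490.1 had 1 and 218, at least 69.2-fold higher when set against 3 counts. Of the long non-coding rows with that mean, 16 were lower by 2-fold or more and 10 higher.

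Genes whose products make up the structures that MALAT1 and NEAT1 occupy, or process their ends, were counted against the same shares of all rows past 2-fold, 6.48% higher and 3.01% lower. Lists this short are near those shares with 0 or 1 gene past 2-fold. Of 12 paraspeckle protein genes with a mean CPM of 1 or more, 1 was at least 2-fold higher and 0 lower, with a median log2 ratio of −0.09. NONO and HNRNPK, RNA-binding paraspeckle proteins, had log2 ratios of −0.34 and −0.13. The one past 2-fold was SMARCA4, the ATPase of the SWI/SNF chromatin remodelling complex, with 233 counts in shCON and 1182 in shUSP12 (log2 ratio 2.26, 95% interval 2.07 to 2.48). Of 15 nuclear speckle protein genes none was past 2-fold in either direction, with a median of −0.07. SRRM2, a scaffold of speckles, had 16307 and 12199 counts (−0.49), and U2AF2, a splicing factor, 7429 and 7136 (−0.13). Of 11 genes for processing and stability of the MALAT1 and NEAT1 ends none was past 2-fold, with a median of −0.10. ELAC2, the nuclease RNase Z, was at −0.24 and POP1, a subunit of RNase P, at −0.35.

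Among genes that act on snoRNA host transcripts and snoRNAs, counts past 2-fold were likewise near the shares of all rows. None of 14 nonsense-mediated decay genes was past 2-fold, with a median log2 ratio of 0.08 and a range from −0.28 to 0.38. EIF4A3, a core protein of the exon junction complex, was at −0.27 and SMG5, which recruits decay enzymes, at 0.17. None of 9 snoRNP genes was past 2-fold, with a median of 0.01. FBL, the methyltransferase of box C/D snoRNPs, had 4773 counts in shCON and 3754 in shUSP12 (−0.42, 95% interval −0.48 to −0.35), and NOLC1, which helps assemble snoRNPs, 6376 and 6152 (−0.12).

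A list of 19 other imprinted genes left out H19 and SNHG14, the latter more than 2-fold higher as given above. None of its 13 genes with a mean CPM of 1 or more was past 2-fold, and the median log2 ratio was 0.15. GNAS, a G protein alpha subunit gene, had 16812 counts in shCON and 10031 in shUSP12 (log2 ratio −0.81, 95% interval −0.85 to −0.78), and IGF2R, the receptor that clears IGF2, had 5266 and 6133 (0.15). Among 13 genes of m6A RNA methylation and its IGF2BP readers, 1 was at least 2-fold higher and 0 lower, near the 6.48% and 3.01% of all rows, with a median of −0.02. IGF2BP2, an RNA-binding protein that stabilises target RNAs, had 178 and 591 counts (1.65, 95% interval 1.42 to 1.91). VIRMA, a subunit of the methylation complex, was at −0.19 and YTHDF1, a cytoplasmic reader, at −0.38.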

How the data were processed

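Stranded mRNA libraries of H1944 cells were sequenced. By the study's methods, reads were trimmed and ribosomal reads removed with Seqtk, and the rest aligned to GRCh38 with HISAT2. The methods name StringTie and uniquely mapped fragments for counting, whereas the submitters' processing notes list Trimmomatic, HISAT2 2.0.4 and HTSeq 0.6.0. The deposited values are whole-number counts per gene that the authors did not normalise. The annotation release and the strand setting are not given in the sources used here. Near-identical gene copies are uncertain in such counts.

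Each table held 59125 rows, and 91 lines without a count were left out. GENCODE release 44, where 58207 identifiers were found, gave gene types, lengths and coordinates counted from 1. CPM were computed with edgeR 4.0.16 (R 4.3.3) and its TMM factors (0.955 for shCON and 1.05 for shUSP12). Log2 ratios had 0.1 CPM added. Rows with a mean CPM of 1 or more were tested against a 2-fold threshold. Intervals, at 95%, came from SciPy 1.17.1, and the procedure was checked on simulated counts. No count model was fitted, since each group held 1 library. RefSeq promoter entries matched 7 of the 8 members.

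The members, gene lists and alternatives were chosen with earlier results of these data known. The genes named were the members, the 2 most abundant genes of each list and every listed gene with a mean CPM of 5 or more past 2-fold, the nearest tested neighbours (all within 250 kb for LINC00942), and the long non-coding rows (without those of the Y chromosome) with the 4 largest rises, the 4 largest falls and the 3 log2 ratios nearest to LINC00942, each with a mean CPM of 5 or more. Some neighbours that the rule names are not reported here. The few others named were chosen after their values were seen, apart from cell type markers. Alternatives were other scalings, pseudocounts, filters and thresholds.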

Additional observations from a re-analysis of the deposited data

How the results depend on the processing

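Of 40 values of the members under other scalings and pseudocounts, 35 stayed within the counting interval of the reported value and 5 moved outside it, all 5 under scaling to total counts alone. That scaling shifts the median log2 ratio of all rows from −0.01 to 0.12, and gave 1.24 for MALAT1, 0.27 for NEAT1, 0.086 for GAS5, 0.12 for SNHG1 and −0.55 for SNHG5, so the sign of GAS5 and SNHG1 depends on the scaling. LINC00942 ranged from −2.25 to −2.07. The median of snoRNA hosts became −0.044 under total counts, hosts at least 1.5-fold lower became 2 (a count added after seeing the data), and rows at least 2-fold lower became 291. Of rows past 2-fold, 68.3% were higher as reported and 79.6% under total counts.

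With 1 CPM added, 214 rows and 24 long non-coding rows were at least 2-fold lower and 60 long non-coding rows higher, and the share of higher rows was 77.1%. With a mean CPM of 5 or more, 168 rows were lower and 361 higher, and 16 long non-coding rows lower and 10 higher. With no filter, the counts were 2447 and 3993, and 860 and 1269 for long non-coding rows. At 1.5-fold, they were 1331 and 1744, and 201 and 173. These shifts follow from the rows and thresholds used. Keeping only rows past 3 counts in each library, an alternative chosen after seeing the data, kept each count within 1.5 times the reported one.

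No paired analysis was possible because shCON and shUSP12 are single libraries, and no library was left out for that reason. Depth limits H19, with 6 and 21 counts, most.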
